A study of Mus musculus with 24 samples.

Results

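Pancreatic β cells from 7-week-old daughters of mothers fed a high-fat diet (HFD) were compared with β cells from daughters of mothers fed a low-protein diet (LPD). The 2 groups were chosen by maternal diet and sex as named in the columns of the count table. They held 4 libraries each, 8 of the 24 libraries in the series. In the study, CD1 dams about 7 weeks old ate a control diet (ND), HFD or LPD for 2 weeks and were then mated with males carrying Ins1Apple. This allele marks β cells with the fluorescent protein Apple and was carried by all 3 diet groups. All offspring, HFD, LPD and ND alike, ate the control diet after birth, so that the diets differed only in the dams. Islets were dispersed, Apple-positive cells were sorted, and RNA depleted of ribosomal RNA was sequenced. Ins1 is therefore linked to the marker used for the sort. The labels name no dam, litter or mouse for any library, so p-values measure the spread between these libraries only, which may include libraries that share a litter.

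β cells make and store insulin in dense granules and release it when glucose metabolism closes potassium channels and opens calcium channels. Proinsulin folds in the endoplasmic reticulum (ER), which makes ER chaperones and the factors that expand them prominent in these cells. Receptors for gut hormones, among them the GLP-1 receptor, and paracrine signals such as somatostatin from δ cells raise or lower secretion.

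Both groups were β-cell preparations by their transcripts. Counts of the insulin genes Ins1 and Ins2 made up 15.2 to 18.4% of the total in the HFD libraries and 13.5 to 16.9% in the LPD libraries. All 8 libraries had female transcripts, with Xist at 752 to 1077 CPM (counts per 1000000 counts of the library) and 4 Y-linked genes summing to at most 2.66 CPM. The groups differed in library quality. HFD libraries held 12433228 to 23676048 counts over 13225 to 19404 detected genes, and LPD libraries 22388100 to 25116855 counts over 22294 to 24707 detected genes. Only 4.40 to 8.18% of the detected genes had 1 to 9 counts in the HFD libraries, against 20.8 to 27.4% in the LPD libraries, so that genes at low counts were missing under HFD. The comparison was therefore limited to the 7209 genes with a mean of at least 20 CPM in at least 1 of the 2 groups, of 33619 genes in the table. The HFD libraries also spread more among themselves, with a biological coefficient of variation of 28.2% against 11.2% under LPD. The LPD value includes LPD 1 and LPD 2, which were closely alike, as given below. HFD 4 and HFD 1 stood apart along the first and second principal components, which held 45.5 and 28.5% of the variance. The count table carries a second line of library numbers, which by the sample descriptions would make the HFD columns ND daughters and the LPD columns HFD daughters. For these columns both readings give daughters. The same numbers would make the ND columns LPD offspring of the other sex, while the columns named ND sons had Y-linked sums of 141 to 178 CPM and Xist of at most 4.45 CPM and those named ND daughters had Xist of at least 667 CPM. Sex thus went with the column names and against the library numbers there, and the diets below follow the column names.

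Between HFD and LPD daughters, 51 of the 7209 genes tested were called, that is, 0.707% passed an adjusted p below 0.05 in the edgeR quasi-likelihood test with Benjamini-Hochberg adjustment. Of these, 22 were higher under HFD (0.305% of the genes tested) and 29 were lower (0.402%). For 10 of the 51 the mean reached 20 CPM only in the group where the gene was higher. They were Alb, Gm47015, Apob, Ntrk3, Pdlim4, Cldn4, Cd59a, Gm8730, Prom1 and Slc14a2. These 10 thus passed the filter through the same high values that the test compared. Called increases had a median log2 fold change of 0.92 and called decreases of -0.72, while the median over all genes tested was 0.02 and 52.9% of them had a log2 fold change above 0. At an unadjusted p below 0.05 there were 916 genes, 489 higher and 427 lower. All 51 called genes had 4 HFD values on one side of the 4 LPD values. Over all genes tested, 4.55% had every HFD library above every LPD library and 5.9% had every HFD library below. The count of calls turned on single libraries, as it was 17 without LPD 3, 20 without LPD 2, 23 without HFD 2, 25 without LPD 1 and 89 without HFD 4. Without HFD 1 and HFD 4, the libraries with the fewest detected genes, 235 genes were called and 50 of the 51 were among them in the same direction. LPD 1 and LPD 2 had the lowest Ins2 counts and were the most alike of all pairs within the HFD, LPD and ND daughters. Their chi-square per gene, a measure of the difference between libraries, had a median of 2.79, against 4.27 to 34.4 for the other pairs. Its mean was also the lowest, and every other pair had a mean of at least 37.3. Whether these libraries share a mouse or litter was not tested, so the LPD group may hold fewer than 4 independent libraries. Without LPD 1 and LPD 2, 8 genes were called. A set of 16 genes was called in all 8 fits that left out 1 library: Alb, Gm47015, Prom1, Apob, Gm15459, Gpx3, Trpm3, Spock2, Dbpht2, Spata13, Mdm1, Pak3, Glp1r, Rpl34, Hjurp and Ntrk3. Each of these fits kept LPD 1 or LPD 2. Without both, Alb, Gm47015, Prom1, Apob and Gm15459 of this set were still called in edgeR, as were Ubr4 and Pla2g2f. The rest of the set had adjusted p from 0.0809 (Spock2) to 0.239 (Rpl34) in that smaller fit. At the other end, 6 genes were called in 1 of the 8 fits that left out 1 library and 8 genes in 2.

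**Figure D1:**
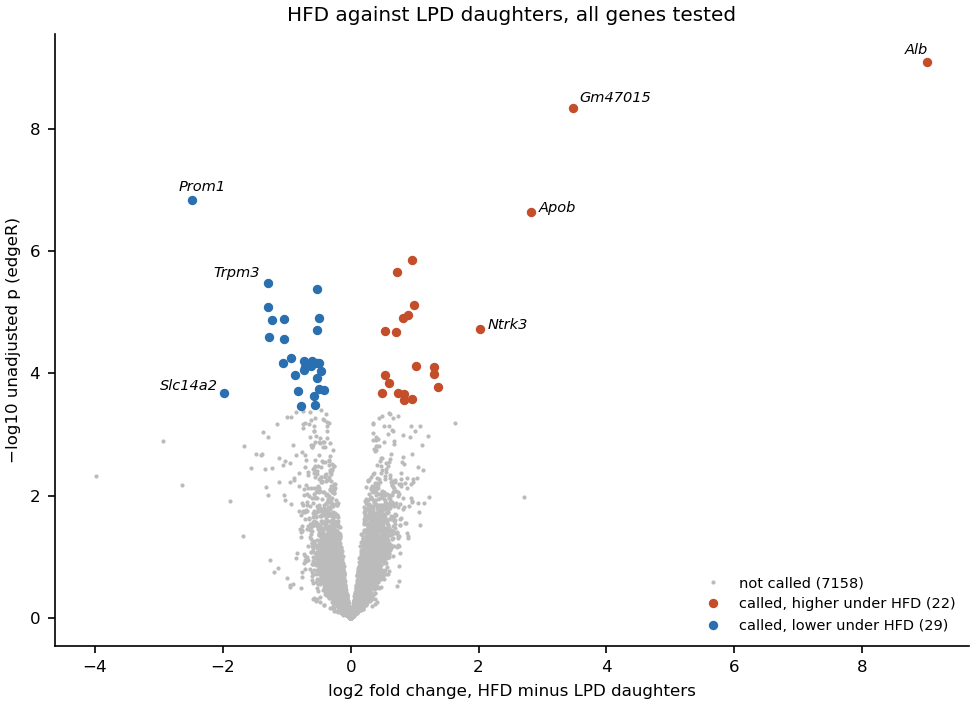
Each point is 1 of the 7209 genes tested, placed by its log2 fold change (HFD minus LPD daughters, horizontal axis) and by −log10 of its unadjusted edgeR p (vertical axis). The 22 genes called higher under HFD are orange and the 29 called lower are blue, and Alb, at 9.02, stands far to the right of every other gene.

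The gene with the greatest increase was Alb, which encodes serum albumin, the main protein secreted by hepatocytes (chr5:90460897-90476602, GRCm38.p6). Its level was 61.8, 53.8, 110.3 and 116 CPM in HFD libraries 1 to 4, scaled by trimmed mean of M values (TMM) as for all gene levels below, and 0.0850, 0.227, 0 and 0.320 CPM in LPD libraries 1 to 4. Every HFD library held at least 846 Alb reads, whereas the LPD libraries held 16 together and LPD 3 held 0. The fold rests on these few LPD reads, at log2 fold change 9.02 ± 0.51, adjusted p = 5.77e-06 (± is the standard error of a fold change throughout). Apob, the apolipoprotein of lipoprotein particles made by liver and intestine, read 24.3, 28.1, 43.7 and 36.2 CPM under HFD and 5.35, 3.90, 4.03 and 5.49 CPM under LPD. The lowest HFD value was above the highest LPD value, with log2 fold change 2.83 ± 0.27, adjusted p = 0.000421. In ND daughters, Alb (0.0455 to 0.271 CPM) and Apob (1.49 to 4.33 CPM) were at levels like those under LPD. Against ND, Alb differed by 9.08 under HFD (adjusted p = 6.03e-08) and by 0.06 under LPD (adjusted p = 0.989).

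Most other hepatocyte markers were too low for the main test, and their levels are given as a description. Of the 29 markers listed, 16 (Alb among them) had every HFD library above every LPD library and none had the reverse. Over the 28510 genes counted in any of the 8 libraries the shares were 1.82% and 6.59%. All 29 were counted in at least 1 HFD library, while 13 were at 0 in all 4 LPD libraries, among them Cps1 and Mug1. Cps1, the first enzyme of the urea cycle, was at 10.4 to 18.6 CPM under HFD, and Mug1, a secreted protease inhibitor, at 7.90 to 18.6 CPM. The summed level of the markers was 527 to 758 CPM under HFD and 337 to 437 CPM under LPD, much of it from Ttr, which islet cells also express. Without Ttr the sums were 226 to 369 CPM and 33.0 to 39.5 CPM. Only 3 of the 29 (Alb, Tat and Ttr) reached 20 CPM and were tested, and Alb alone was called. With the filterByExpr filter, which keeps genes at lower counts, 20 of the 29 were tested. Of these, 10 were called higher under HFD and 0 lower, beside 22 called higher among all 16866 genes tested there. A marker at 0 under LPD passes that filter only through its HFD values, so these calls too are given as a description. The part of the hepatocyte markers in the other differences was not tested, and in bulk samples the number of cells of a type and the RNA per cell cannot be told apart. Blood cell transcripts were low in both groups, with summed red blood cell markers at 2.28 to 24.5 CPM under HFD and 4.50 to 6.72 CPM under LPD. Acinar markers summed to 143 to 568 CPM under HFD and 109 to 1032 CPM under LPD, so that these ranges overlapped.

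**Figure D2:**
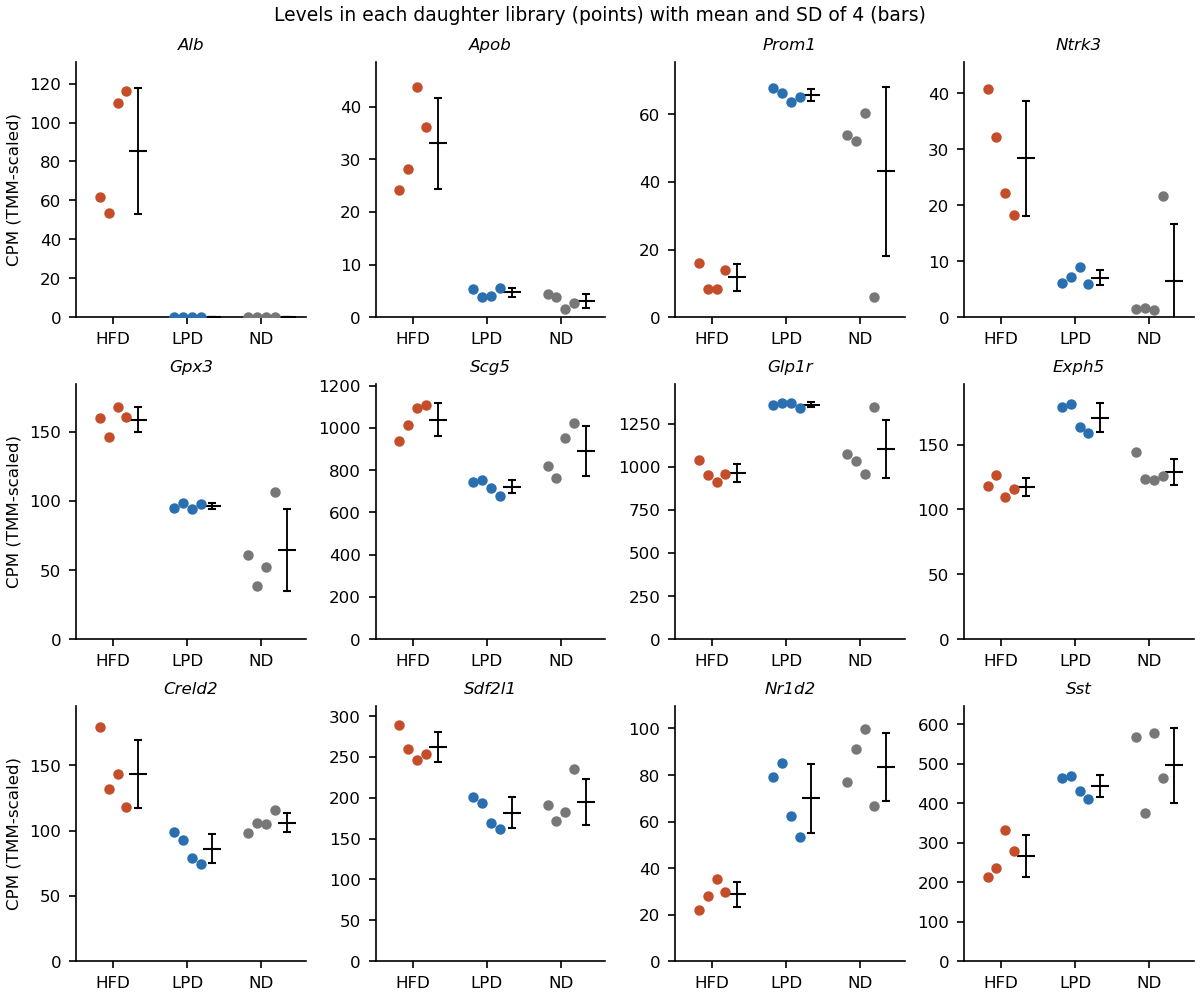
TMM-scaled CPM (vertical axes, starting at 0) of 12 genes in HFD, LPD and ND daughters, 1 point per library, with the mean and SD of 4 libraries as a bar beside the points. In each panel the 4 HFD points do not overlap the 4 LPD points. Alb was near 0 in both LPD and ND, and 1 ND library lay far from the other ND libraries in Prom1 (5.92 CPM) and Ntrk3 (21.7 CPM).

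Among 22 genes of insulin production and granule cargo, Scg5 alone was called. Scg5 encodes the chaperone 7B2 of the prohormone convertase PC2 in secretory granules. It read 939, 1015, 1095 and 1109.9 CPM in HFD libraries 1 to 4 and 743, 754, 714 and 679.9 CPM in LPD libraries 1 to 4. All HFD libraries exceeded all LPD libraries, with log2 fold change 0.53 ± 0.08, adjusted p = 0.008. The median log2 fold change of that list was -0.02, beside 0.02 over all genes tested. The 2 insulin genes did not pass in edgeR, although Ins2 was called by voom with quality weights (adjusted p = 0.0405) and with the replicate block (adjusted p = 0.0455). Ins2 took 7.41, 8.13, 9.05 and 8.98% of counts in HFD libraries 1 to 4 and 3.27, 3.25, 5.04 and 8.27% in LPD libraries 1 to 4. LPD 4 lay within the HFD range, and the other LPD libraries lay below it. The edgeR test gave log2 fold change 0.75 ± 0.26, adjusted p = 0.262, and without LPD 4 the log2 fold change was 1.14 with an adjusted p of 0.0117. Ins1 took 7.83 to 9.34% of counts under HFD and 8.66 to 10.3% under LPD (log2 fold change -0.16 ± 0.09, adjusted p = 0.483). Nnat, a small ER membrane protein of β cells whose gene lies within Blcap on the other strand, was at 152 to 168 CPM under HFD and 48.6 to 125 CPM under LPD, and did not pass (log2 fold change 0.75 ± 0.23, adjusted p = 0.19), although DESeq2 (adjusted p = 0.0322) and the fit of all 24 libraries (adjusted p = 0.0422) called it.

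Glp1r, the receptor for the incretin hormone GLP-1 (chr17:30901817-30940791), was lower under HFD. HFD libraries 1 to 4 held 1037, 952, 911 and 956 CPM and LPD libraries 1 to 4 held 1359.8, 1368, 1372 and 1342 CPM. The LPD values were nearly equal and lay above the highest HFD value, with log2 fold change -0.49 ± 0.07, adjusted p = 0.00655. An antisense gene, Gm10503, overlaps Glp1r at a mean of 30.4 CPM over the 8 libraries, and whether the counting used strand is not given in the sources used here. Glp1r was the only call among 19 receptors that tune secretion, whose median was -0.04. The somatostatin receptor gene Sstr3 was at 329.7 to 377 CPM under HFD and 217 to 279 CPM under LPD, without passing (log2 fold change 0.44 ± 0.09, adjusted p = 0.0592). Exph5, which encodes a Rab27 effector of granule release, read 118, 126, 109 and 115 CPM under HFD and 179, 182, 164 and 159 CPM under LPD. Its groups were apart by more than the range of either, with log2 fold change -0.53 ± 0.09, adjusted p = 0.0182. Exph5 was the 1 call among 24 genes of exocytosis machinery, 16 of which had a log2 fold change below 0 (median -0.13). Of the 24, 9 (Exph5 among them) had every HFD library below every LPD library and 0 had the reverse. Over all genes tested these shares were 5.9% and 4.55%. Of these 9, Rab37 (-0.72), Cplx2 (-0.37) and Rims2 (-0.40) had adjusted p of 0.0635, 0.0641 and 0.163. Outside these lists, Sort1, the sorting receptor sortilin (log2 fold change -0.72 ± 0.12, adjusted p = 0.0182), and Prkca, protein kinase Cα (log2 fold change -0.60 ± 0.10, adjusted p = 0.0182), were lower. Itpkb, a kinase of inositol trisphosphate, was lower as well (log2 fold change -0.50 ± 0.09, adjusted p = 0.0322), and a same-strand transcript, Gm37033, overlaps it at 24.1 CPM. Scg5 was called in 7 of the 8 fits without 1 library, Exph5, Sort1 and Prkca in 4, and Itpkb in 2.

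No gene of β-cell identity passed the edgeR test. Among 24 β-cell transcription factors there was no call, with a median of -0.02, and 4 had an unadjusted p below 0.05. DESeq2 and voom with quality weights called Mafa, the activator of insulin genes in mature β cells. Its levels were 1177, 1209, 1092 and 1228 CPM under HFD and 1409, 1391, 1461 and 1480.4 CPM under LPD. The groups did not overlap, at log2 fold change -0.28 ± 0.07, adjusted p = 0.0997 in edgeR. Pdx1, a pancreatic master regulator, had a log2 fold change of 0.00 ± 0.08, and Nkx6-1 one of 0.04 ± 0.08. For Slc2a2, the glucose transporter GLUT2, it was -0.17 ± 0.07, and for Ucn3, a β-cell maturity peptide, -0.12 ± 0.08. The zinc-finger genes Myt1 (-0.11 ± 0.09) and St18 (-0.02 ± 0.11) did not pass either. No gene of glucose sensing and excitability was called among 21, with a median of -0.08 and 6 at an unadjusted p below 0.05.

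**Figure D3:**
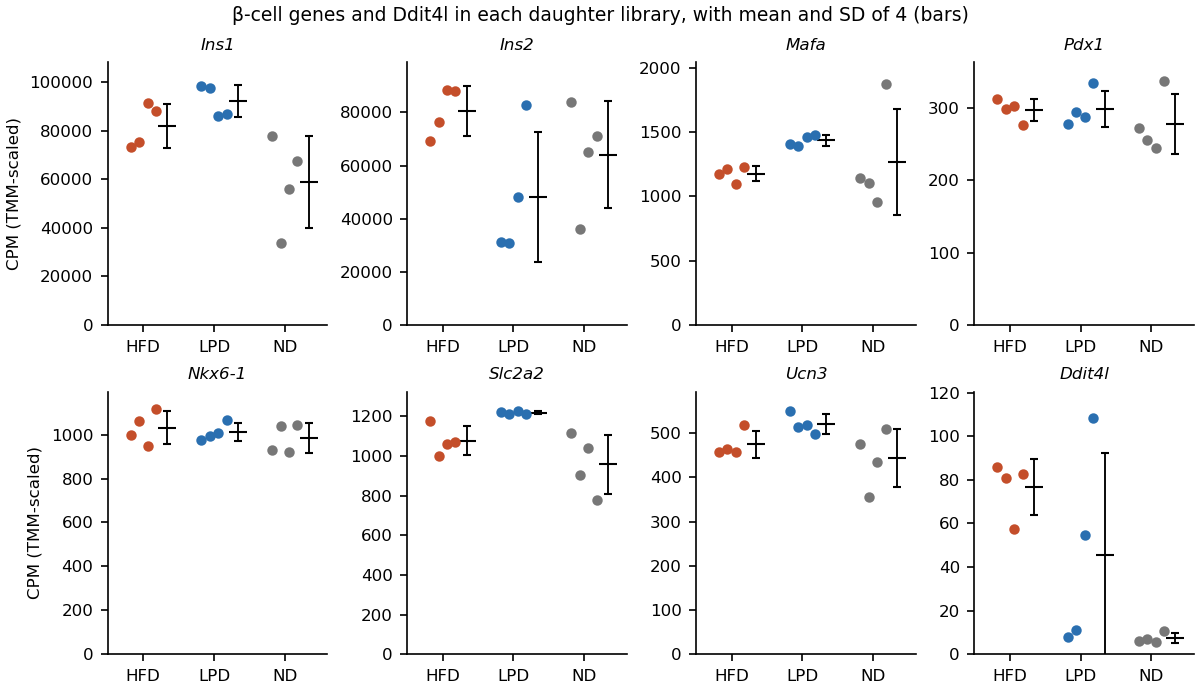
TMM-scaled CPM (vertical axes, starting at 0) of 8 genes that were not called, in HFD, LPD and ND daughters, 1 point per library with the mean and SD of 4 libraries as a bar beside them. Ins2 and Ddit4l spread widely within the LPD group, where LPD 4 held 82935 CPM of Ins2 and LPD 2 held 30835 CPM, whereas Pdx1 and Nkx6-1 overlapped in all groups.

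Of 36 ER chaperone and folding genes, 30 (83.3%) had a log2 fold change above 0, beside 52.9% of all genes tested, with a median of 0.14. Of the 36, 2 were called, both higher under HFD, where 0.305% of all genes tested were called higher. Creld2 encodes a disulfide isomerase-like ER protein that is induced when unfolded protein accumulates (chr15:88819646-88826683). It read 179, 132, 144 and 118 CPM under HFD and 98.6, 92.9, 79.2 and 74.2 CPM under LPD. HFD 1 was highest and HFD 4 was still above all LPD libraries, with log2 fold change 0.74 ± 0.14, adjusted p = 0.0339. Sdf2l1, a partner of the chaperone BiP and the co-chaperone Dnajb11, read 289, 260.2, 246 and 254 CPM under HFD and 201, 194, 169.6 and 162 CPM under LPD. Its 2 groups did not overlap (log2 fold change 0.54 ± 0.09, adjusted p = 0.0216). Dnajb11 itself (0.40 ± 0.10, adjusted p = 0.0911), the disulfide isomerase Pdia6 (0.37 ± 0.09, adjusted p = 0.0963) and Hspa5, which encodes BiP (0.21 ± 0.08, adjusted p = 0.281), had non-overlapping groups but did not pass. In the whole list of 36, 9 genes had every HFD library above every LPD library and 0 had the reverse. Over all genes tested these shares were 4.55% and 5.9%. Creld2 was called in 1 and Sdf2l1 in 3 of the 8 fits without 1 library, with adjusted p of up to 0.168 and 0.136.

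The ER stress response element (ERSE) is a known promoter motif of such genes and consists of CCAAT, 9 free bases and CCACG. Promoters from RefSeq (GRCm38.p6, 250 bases before to 50 after each gene start) were searched for it on both strands. It was found in 39 of 32851 promoters (0.119%), in 13 of 7536 promoters of tested genes (0.173%) and in 9 of 31 promoters of the 28 ER list genes that matched (29.0%). The 9 genes were Calr, Canx, Creld2, Derl3, Dnajc3, Hsp90b1, Hspa5, Pdia6 and Syvn1. These shares describe the promoters of the listed genes and do not rest on the expression values. All 9 had a log2 fold change above 0, from 0.07 to 0.74 with a median of 0.21, and of the 19 list genes with no match 16 were above 0, with a median of 0.15. Whether the motif has a part in the differences between the diets was not tested. The 150 bases before the start of 4 genes are shown 5′ to 3′ along the gene, because they hold or lack the motif (in capitals) beside the chaperone values above. Creld2 holds it in reverse orientation, Pdia6 and Hspa5 hold it forward, and Sdf2l1, the other called gene, has no match in this window. The windows lie at chr15:88819496-88819645 (+), chr12:17266439-17266588 (+), chr2:34771940-34772089 (+) and chr16:17132384-17132533 (−).
Creld2: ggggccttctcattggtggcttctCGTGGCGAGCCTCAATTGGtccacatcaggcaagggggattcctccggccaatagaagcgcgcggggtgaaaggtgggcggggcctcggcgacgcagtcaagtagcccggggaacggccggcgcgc
Pdia6: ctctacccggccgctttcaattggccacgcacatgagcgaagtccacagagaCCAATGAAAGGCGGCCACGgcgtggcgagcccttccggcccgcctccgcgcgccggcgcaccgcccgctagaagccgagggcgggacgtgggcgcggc
Hspa5: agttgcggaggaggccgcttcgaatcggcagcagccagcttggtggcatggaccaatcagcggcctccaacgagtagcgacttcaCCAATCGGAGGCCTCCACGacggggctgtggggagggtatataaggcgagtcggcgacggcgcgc
Sdf2l1: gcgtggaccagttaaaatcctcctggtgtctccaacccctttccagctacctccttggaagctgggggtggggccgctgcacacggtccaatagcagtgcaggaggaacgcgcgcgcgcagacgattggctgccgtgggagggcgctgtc

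Of 23 genes tested of the integrated stress response and amino acid supply, 20 (87.0%) had a log2 fold change above 0, beside 52.9% of all genes tested, with a median of 0.24. Cars alone was called. Cars, the cysteinyl-tRNA synthetase, read 65.7, 57.1, 73.1 and 85.2 CPM under HFD and 35.1, 34.5, 42.6 and 45.9 CPM under LPD. All HFD libraries were above all LPD libraries (log2 fold change 0.84 ± 0.16, adjusted p = 0.0339), although the call held in only 2 of the 8 fits without 1 library. Aars, the alanyl-tRNA synthetase, was at 0.35 ± 0.08 (adjusted p = 0.0635) and Atf4, the transcription factor at the head of this response, at 0.33 ± 0.10 (adjusted p = 0.21). Ddit4l, an inhibitor of mTORC1, differed among the LPD libraries more than between diets. It read 85.8, 80.9, 57.7 and 82.5 CPM in HFD libraries 1 to 4 and 8.03, 11.2, 54.5 and 108 CPM in LPD libraries 1 to 4. LPD 1 and LPD 2 were near the ND level of 5.71 to 10.6 CPM, and LPD 4 was above every HFD library. Heat shock chaperones had 24 of 26 genes above 0 (median 0.24) and no call, with Hspd1 at 0.40 ± 0.11 (adjusted p = 0.139), Hsp90aa1 at 0.43 ± 0.18 (adjusted p = 0.338) and Hspe1, which shares a promoter region with Hspd1, at 0.39 ± 0.20 (adjusted p = 0.435). At an unadjusted p below 0.05, 7 heat shock genes passed in edgeR, and DESeq2 called Hspd1.

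**Figure D4:**
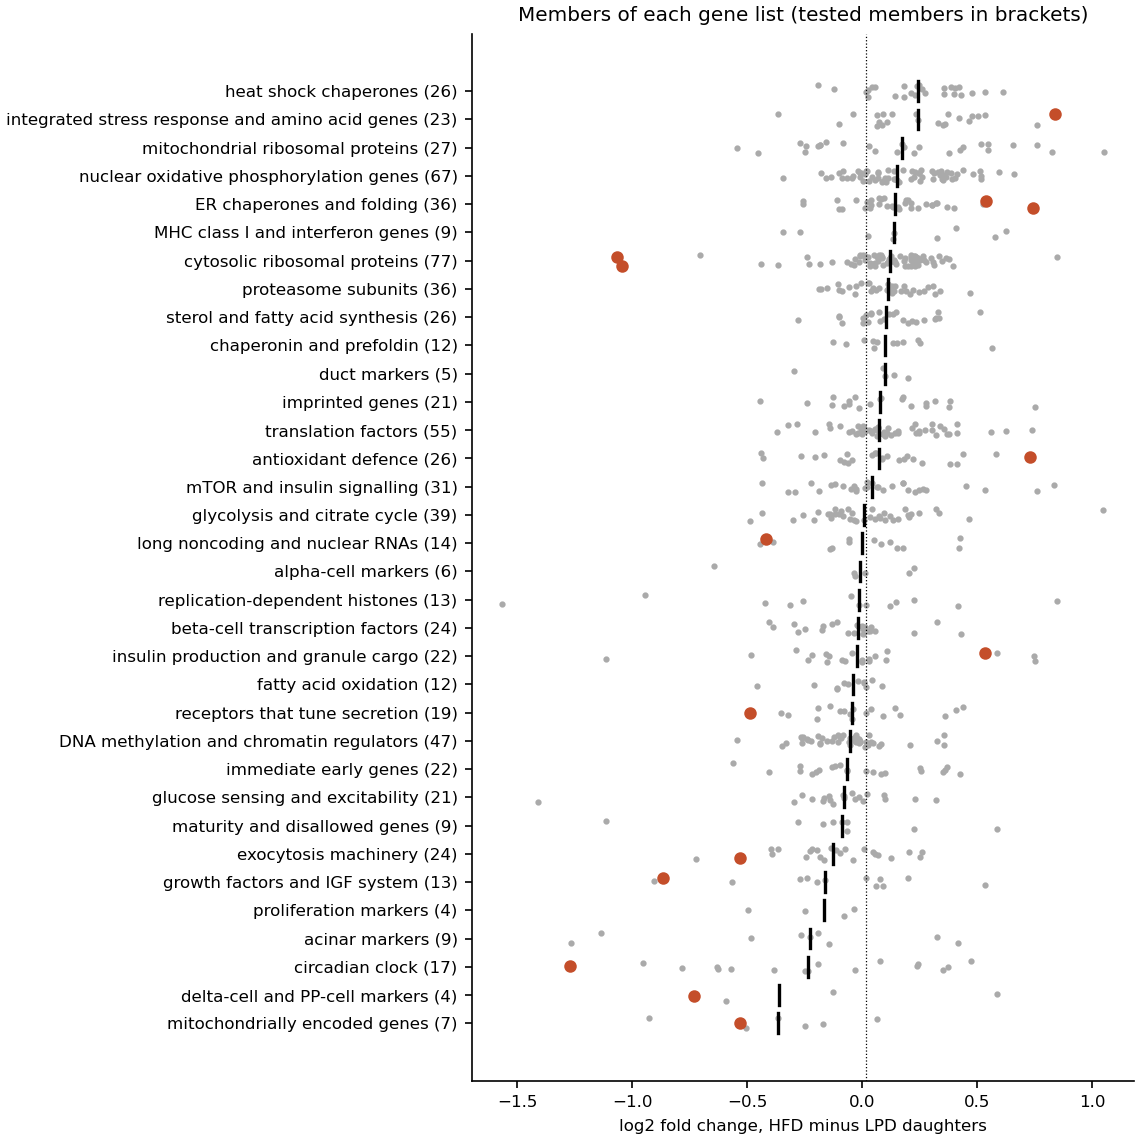
Log2 fold change (HFD minus LPD daughters, horizontal axis) of every tested member of each gene list with at least 4 tested members, 1 point per gene, with a black bar at the list median and a dotted line at the median of all genes tested (0.02). Called genes are orange. Medians ran from -0.37 for mitochondrially encoded genes to 0.24 for heat shock chaperones.

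In antioxidant defence, Gpx3 was called. Gpx3, the secreted selenium-dependent glutathione peroxidase (chr11:54902453-54910377), read 159.9, 146, 168 and 161 CPM under HFD and 94.8, 98.6, 94.0 and 97.5 CPM under LPD. The 4 LPD libraries were nearly equal, and the lowest HFD value was well above them, with log2 fold change 0.73 ± 0.09, adjusted p = 0.00267. In ND daughters it was at 61.2, 38.2, 52.1 and 107 CPM, and HFD exceeded ND by 1.29 (adjusted p = 0.00881) while LPD against ND gave 0.56 (adjusted p = 0.291, or 0.00709 without ND 4). Of 26 antioxidant genes 16 were above 0 and the median was 0.07. Txnip, an inhibitor of thioredoxin that glucose induces, had a log2 fold change of -0.43 ± 0.12 (adjusted p = 0.131), and DESeq2 called it (adjusted p = 0.0167).

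Mitochondrial transcripts from the 2 genomes had medians of opposite sign. Of 67 nuclear genes of oxidative phosphorylation, 53 were above 0 (median 0.15) with no call and 7 at an unadjusted p below 0.05. Of 7 mitochondrially encoded genes, 6 were below 0 (median -0.37). The call among them was mt-Nd4, a subunit of complex I, at 258, 285, 285 and 223 CPM under HFD and 354, 401, 373 and 400.1 CPM under LPD. All HFD values were below all LPD values (log2 fold change -0.53 ± 0.09, adjusted p = 0.0229), and the call held in 2 of the 8 fits without 1 library. With all 24 libraries fitted, mt-Nd4 was not called (adjusted p = 0.198), and ND daughters were at 143 to 401 CPM. Another complex I gene, mt-Nd6, was at -0.93 ± 0.20 (adjusted p = 0.0592). Ivd, the mitochondrial isovaleryl-CoA dehydrogenase of leucine breakdown, was lower under HFD, at 73.7 to 109.9 CPM against 147 to 159 CPM (log2 fold change -0.72 ± 0.12, adjusted p = 0.0186), with a call in 4 of the 8 fits.

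Nr1d2, which encodes the nuclear receptor REV-ERBβ, a repressor in the circadian clock, was lower under HFD. Its values were 22, 28.1, 35.1 and 29.8 CPM in HFD libraries 1 to 4 and 79.1, 85.1, 62.5 and 53.2 CPM in LPD libraries 1 to 4. LPD 3 and LPD 4 were below LPD 1 and LPD 2 but above every HFD library (log2 fold change -1.27 ± 0.19, adjusted p = 0.00904). ND daughters were at 66.8 to 99.7 CPM. Among the 17 clock genes tested, 11 were below 0 (median -0.24) and Nr1d2 alone was called. Bhlhe41 was at -0.57 ± 0.13 (adjusted p = 0.0641), Nr1d1 at -0.95 ± 0.29 (adjusted p = 0.183) and Dbp at -0.78 ± 0.36 (adjusted p = 0.391). The time of day of tissue collection is not given in the labels, so clock phase and diet cannot be told apart.

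Sst, which encodes somatostatin, the hormone of δ cells that restrains insulin release, was lower under HFD. HFD libraries held 214, 236, 333 and 279 CPM and LPD libraries 464, 468, 429.7 and 410.1 CPM. HFD 3 was the highest of its group and still below LPD 4, the lowest LPD library, with log2 fold change -0.73 ± 0.13, adjusted p = 0.0197 and a call in 4 of the 8 fits without 1 library. The sort was for β cells, and the summed markers of δ and PP cells were 396 to 702 CPM under HFD and 621 to 920 CPM under LPD. Sst is itself in these sums, at 229 to 341 CPM of the library total under HFD and 409 to 493 CPM under LPD. The sums are therefore not a measure separate from the Sst difference. Among the other markers, Ppy, pancreatic polypeptide, was at 85.4 to 232 CPM of the library total under HFD and 141 to 276 CPM under LPD. Lepr was at 0 in every HFD library. Hhex, a δ-cell transcription factor, was at 0, 1.18, 0 and 4.18 CPM in HFD libraries 1 to 4 and at 0.919 to 2.01 CPM under LPD, so that these ranges overlapped. Both genes are at levels where HFD libraries lacked genes. Of the 10 listed markers of δ and PP cells, 4 were tested and Sst alone was called. Of these 4, 3 had a log2 fold change below 0 and 1 had one above 0, at 0.59. The part of δ-cell number in the Sst difference was not tested. The α-cell hormone gene Gcg was at 493 to 847 CPM of the library total under HFD and 398 to 880 CPM under LPD. The α-cell sums overlapped too (1345 to 1695 and 1185 to 1788 CPM).

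Prom1, Ntrk3, Trpm3 and Slc14a2 were among the called genes that encode membrane proteins. Prom1, the membrane glycoprotein CD133 (chr5:43993620-44102032), read 16.1, 8.48, 8.43 and 13.9 CPM under HFD and 67.8, 66.4, 63.7 and 65.3 CPM under LPD. HFD libraries were all far below LPD libraries (log2 fold change -2.49 ± 0.23, adjusted p = 0.000353). In ND daughters, 3 libraries were at 52.1 to 60.5 CPM and ND 4 at 5.92 CPM. Ntrk3, the receptor for neurotrophin-3, went the other way, at 40.8, 32.2, 22.1 and 18.2 CPM under HFD and 6.12, 7.23, 8.90 and 5.97 CPM under LPD. Its groups did not overlap (log2 fold change 2.02 ± 0.29, adjusted p = 0.008), and ND 4 (21.7 CPM) again differed from the other ND libraries (1.22 to 1.59 CPM). Trpm3, a calcium-permeable channel gated by heat and neurosteroids, was at 35.4, 37.5, 32.0 and 22.9 CPM under HFD and 82.5, 81.1, 73.7 and 80.0 CPM under LPD. HFD 4 was lowest (log2 fold change -1.30 ± 0.16, adjusted p = 0.0034), and ND daughters were at the LPD level (69.4 to 88.1 CPM). Slc14a2, a urea transporter, was at 3.39 to 7.80 CPM under HFD and 13.9 to 34.7 CPM under LPD (log2 fold change -1.99 ± 0.38, adjusted p = 0.0339). It was called in 2 of the 8 fits without 1 library.

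Agt, which encodes angiotensinogen, was lower under HFD and near the ND level there. It read 36.2, 34.7, 50.4 and 34 CPM in HFD libraries 1 to 4, 78.9, 70.2, 69.6 and 66.8 CPM in LPD libraries 1 to 4 and 34.7, 25.2, 28.4 and 43.7 CPM in ND libraries 1 to 4. HFD and ND overlapped, and every LPD library was above both (log2 fold change -0.87 ± 0.15, adjusted p = 0.0216 for HFD against LPD). Against ND the log2 fold change was 0.23 under HFD (adjusted p = 0.519) and 1.10 under LPD (adjusted p = 0.013). Sfrp5, a secreted inhibitor of Wnt signalling, was at 81.4 to 125 CPM under HFD, 151 to 215 CPM under LPD and 91.6 to 117 CPM under ND. The HFD and LPD values did not overlap (log2 fold change -0.78 ± 0.16, adjusted p = 0.0481), with -0.05 for HFD against ND (adjusted p = 0.889) and 0.73 for LPD against ND (adjusted p = 0.0473). Agt was called in 2 and Sfrp5 in 1 of the 8 fits without 1 library. For LPD against ND, Agt was called in 9 of 12 such fits, but not without LPD 3, ND 2 or ND 3 (adjusted p of up to 0.0914), and Sfrp5 in 3 of 12 (up to 0.21). Cish, a suppressor of cytokine signalling induced by STAT5, was at 54.6 to 58.6 CPM under HFD and 77.6 to 128 CPM under LPD (log2 fold change -0.94 ± 0.15, adjusted p = 0.0181), and Tmem130, a membrane protein gene, at 73.6 to 95.4 and 107 to 177 CPM (log2 fold change -0.83 ± 0.16, adjusted p = 0.0331). In both, LPD 4 was the lowest LPD library, and Cish was called in 3 and Tmem130 in 1 of the 8 fits.

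Ribosomal protein genes have near-identical processed copies elsewhere in the genome. How reads that match several places were counted is not given in the sources used here and was not tested, so these calls are uncertain. Rpl34 was at 23.4, 26.0, 25.7 and 28.1 CPM under HFD and 56.0, 54.5, 46.1 and 57.7 CPM under LPD (log2 fold change -1.04 ± 0.15, adjusted p = 0.00655), and Rpl26 at 17.6 to 29.5 CPM and 45.4 to 51.9 CPM (log2 fold change -1.07 ± 0.18, adjusted p = 0.0182). These were the only calls among 77 cytosolic ribosomal protein genes, and both were lower, whereas 61 of the 77 had a log2 fold change above 0 (median 0.12). Gm15459 (log2 fold change 0.95 ± 0.11, adjusted p = 0.00199), Gm8730 (log2 fold change 1.30 ± 0.23, adjusted p = 0.0216) and Rps2-ps13 (log2 fold change 0.83 ± 0.16, adjusted p = 0.0405), which are annotated as copies or predicted genes, were higher. Rpl34 and Gm15459 were called in all 8 fits without 1 library, Rpl26 in 4, Gm8730 in 3 and Rps2-ps13 in 1. Gm47015, an unnamed long noncoding RNA gene (chr10:79412962-79417905), was at 53.3, 41.9, 35 and 55.6 CPM under HFD and 4.50, 3.67, 4.51 and 4.01 CPM under LPD. Its increase was second only to that of Alb (log2 fold change 3.48 ± 0.23, adjusted p = 1.68e-05), and in ND daughters it was at 0.657 to 3.97 CPM.

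The other called increases had log2 fold changes of 0.49 to 1.36. They were Pdlim4 (1.36), an actin-associated LIM protein, Cd59a (1.30), an inhibitor of the complement membrane attack complex, Cldn4 (1.02), a tight-junction claudin, Dbpht2 (0.99), Plppr4 (0.95), a membrane protein of neurons, Mdm1 (0.89), a microtubule-binding centriole protein, Pak3 (0.82), a p21-activated kinase, Pla2g2f (0.71), a secreted phospholipase A2, Map3k15 (0.60), a MAP kinase kinase kinase, and Gmppa (0.49), a regulator of GDP-mannose synthesis. Map3k15 overlaps Pdha1 on the other strand, which was at 60.1 CPM. The other called decreases ran from -1.29 to -0.42. Among regulators these were Spata13 (-1.29), a guanine nucleotide exchange factor, Hjurp (-1.23), the chaperone of the centromeric histone CENP-A, and Zfp462 (-1.04), a zinc-finger protein. Spock2 (-0.53) and Hapln4 (-0.63) encode proteins of the extracellular matrix, and Cdh2 (-0.57) is N-cadherin, the adhesion molecule. Kif13b (-0.50) is a kinesin, Fhdc1 (-0.56) a formin-like protein, and Ubr4 (-0.52) an E3 ubiquitin ligase whose gene overlaps Emc1 on the same strand (107 CPM). Xist, the RNA of X inactivation, was at 703 to 827 CPM under HFD and 993 to 1077 CPM under LPD after TMM scaling (log2 fold change -0.42 ± 0.08, adjusted p = 0.0331). The gap was small beside that between the sexes, given below. Of the genes in this paragraph, Gmppa and Fhdc1 were called in 1 of the 8 fits without 1 library, Plppr4, Cdh2 and Xist in 2, and Pdlim4, Cd59a, Cldn4 and Map3k15 in 3.

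To place both diets beside control, HFD and LPD were each compared with ND daughters in a fit of the 12 daughter libraries. HFD against ND called 72 genes (0.999%) and LPD against ND 28 genes (0.388%). These comparisons share the ND libraries, and each also shares libraries with HFD against LPD, so their values are given side by side only. For Glp1r the log2 fold change against ND was -0.20 under HFD (adjusted p = 0.305) and 0.29 under LPD (adjusted p = 0.214). For Scg5 the values were 0.22 and -0.31 (adjusted p = 0.259 and 0.193), for Exph5 -0.14 and 0.39 (0.455 and 0.0792), and for Creld2 0.43 and -0.31 (0.115 and 0.357). In these 4 genes neither diet differed from ND by the test, and the means of the 2 diets lay on opposite sides of ND. Trpm3 (-1.30 under HFD, adjusted p = 0.00018; 0.00 under LPD, adjusted p = 0.999), Nr1d2 (-1.54, adjusted p = 0.000301; -0.27, adjusted p = 0.627) and Sst (-0.91, adjusted p = 0.00737; -0.18, adjusted p = 0.736) passed against ND only under HFD. List medians against ND were -0.06 under HFD and -0.20 under LPD for ER chaperones and folding. For heat shock chaperones they were -0.13 and -0.31, and for nuclear oxidative phosphorylation genes -0.11 and -0.30. Over all genes tested they were 0.007 and -0.005. Hspd1 was at -0.29 under HFD (adjusted p = 0.299) and -0.70 under LPD (adjusted p = 0.0473), and Hspe1 at -0.65 (0.119) and -1.03 (0.0306). Counts against ND depended on single ND libraries, at 213 (HFD) and 105 (LPD) without ND 4, and 17 and 3 without ND 2.

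Sons of the same diets, 4 HFD and 4 LPD libraries outside the fit of the daughters, gave a further reading of the same contrast. The labels name no dam or litter, so sons and daughters may share litters, and the sons may not be an independent repeat. Fitted alone on the same 7209 genes, the sons had 699 calls (9.7%), 331 higher and 368 lower under HFD. Xist, at 0.250 to 5.06 CPM in sons, cannot be read there and is left out of the counts that follow. Of the other 50 genes called in daughters, 33 were called in sons in the same direction, which is 66.0% of the daughters' calls and 4.73% of the sons'. The sign was the same for 46 of the 50 (92.0%), beside 61.5% of all genes tested. Alb was at 61.7, 45.0, 50.4 and 33.7 CPM in HFD sons and 0.189, 0, 0.368 and 0.0592 CPM in LPD sons. As in daughters, it was near 0 in every LPD library and its log2 fold change was 8.15 (adjusted p = 9.45e-07). The hepatocyte markers without Ttr summed to 138 to 217 CPM in HFD sons and 32.6 to 44.4 CPM in LPD sons. Prom1 (-2.0, adjusted p = 1.45e-05), Gpx3 (0.90, adjusted p = 0.000158), Apob (2.49, adjusted p = 0.00098), Glp1r (-0.51, adjusted p = 0.0197) and Scg5 (0.67, adjusted p = 0.00244) were also called in sons. Cish, Rpl26, Sst and mt-Nd4 had the opposite sign in sons.

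A test of the difference between daughters and sons, in a fit of the 16 libraries, called 3 genes (0.0416%), with 694 at an unadjusted p below 0.05. Sst was at 391, 855, 715 and 772 CPM in HFD sons and 347, 393, 346 and 487 CPM in LPD sons. It was lower under HFD in daughters (-0.73) and higher in sons (0.81), and the difference was -1.54 (adjusted p = 0.0308). Dusp7, a phosphatase of ERK, had 0.38 in daughters and -0.84 in sons (difference 1.22, adjusted p = 0.0216), and Myh14, a nonmuscle myosin heavy chain, 0.24 and -0.70 (difference 0.94, adjusted p = 0.0228). Neither passed in daughters alone. These calls were not stable, since none remained without LPD 1 or LPD 2 of the daughters, or without HFD 2, HFD 3, LPD 2 or LPD 3 of the sons, and 70 genes were called without LPD 4 of the sons.

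**Figure D5:**
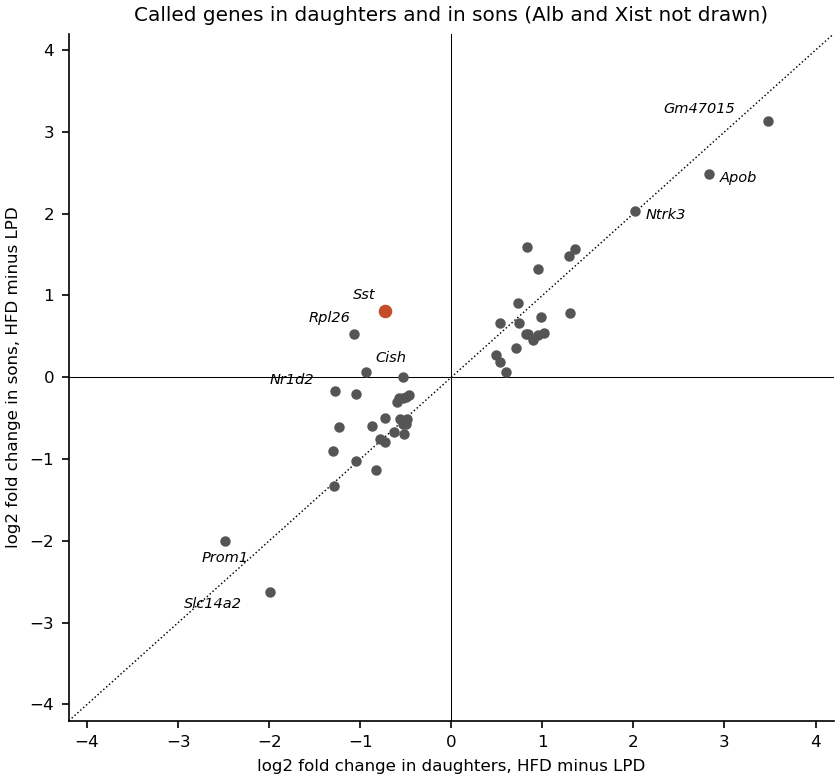
Log2 fold change (HFD minus LPD) in daughters (horizontal axis) and sons (vertical axis) of 49 of the 51 genes called in daughters, 1 point per gene, with a dotted line where both are equal. Alb (9.02 in daughters and 8.15 in sons) lies outside the drawn range, and Xist is left out. Most points share their sign, and Sst, in orange, is the one called gene whose difference between the sexes passed.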

How the data were processed

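Total RNA of sorted β cells was sequenced in 24 libraries (6 groups of diet and sex, 4 each). The authors deposited raw counts per gene, not normalised, and FPKM values. The deposited FPKM equalled counts scaled by gene length and by the column total, within 5e-04. The submitters' processing notes name cutadapt 2.10, STAR 2.7.8a, HOMER, DESeq2 and the build GRCm38.p6, with no roles. The sources used here do not give the counter or its strand setting.

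Columns were matched to samples by name. The 8 HFD and LPD daughter libraries were fitted alone in edgeR 4.0.16 (R 4.3.3) with TMM scaling and the quasi-likelihood test, without a replicate block. Tested genes had a mean of at least 20 CPM in either group, since HFD libraries lacked genes at low counts. The common dispersion was 0.0448 with 5.79 prior degrees of freedom. Genes were called at a Benjamini-Hochberg adjusted p below 0.05. Fold changes are given with standard errors (SE). Gene levels are TMM-scaled CPM, with factors over all 24 libraries, and markers and percentages use the library total. Daughters against ND used 12 libraries and the difference between sexes 16. A count of 3 corresponded to 0.119 to 0.241 CPM in the 8 libraries. The widest 95% Wilson interval of the Ins1 and Ins2 share spanned 0.045 percentage points, which covers counting error only, as does any limit from low counts.

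Named genes were called genes without overlap between groups (12 per direction by fold change), up to 4 called members of each of 38 gene lists, and 18 fixed genes, and every other called gene was added after its values were seen, except 1 that is not reported here. The comparison, its genes and its lists were chosen with earlier results of these data known. Alternatives were DESeq2 1.42.0, limma 3.58.1 (voom with quality weights, or log2(FPKM + 1) and log2(FPKM + 0.1)), other scalings and filters, all 24 libraries fitted, a replicate block, the groups by library number, and leaving out each library. Quality weights per group and leaving out LPD 1 and 2 were chosen after seeing the data. The fit was tested on simulated data with 1 dispersion for all genes and both groups. In the data the common dispersion was 0.0795 within HFD and 0.0125 within LPD daughters. That simulation therefore cannot show how the test behaves under unequal spread.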

Additional observations from a re-analysis of the deposited data

Results flagged for a closer look

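With 4 libraries per group, 138 sets of gene and group were screened for a library far from the other 3, and 10 were found (chance gives about 1 in 20). All values are TMM-scaled CPM unless named. In the HFD group, HFD 1 was high for Spock2 (915 against 862 to 870) and St18 (189 against 137 to 146) and low for Kif13b (167 against 182 to 185). HFD 2 was high for Prkca (116 against 92.0 to 95.6). HFD 3 was high for Agt (50.4 against 34 to 36.2) and low for Hspd1 (148 against 164 to 167), and HFD 4 was high for Ucn3 (518 against 458 to 463). In the LPD group, LPD 4 was low for Spata13 (47.2 against 56.7 to 58.2), and LPD 3 was low for St18 (149 against 159 to 161). The insulin genes Ins1 and Ins2 took a high share of the counts in LPD 4 (16.9% against 13.5 to 14.0%). Spock2, Kif13b, Prkca, Agt and Spata13 had no overlap between diets even with these libraries.

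The difference between HFD and LPD was itself different between daughters and sons in 3 genes by the edgeR interaction test, namely Sst (daughters minus sons -1.54), Dusp7 (1.22) and Myh14 (0.94).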

How the results depend on the processing

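All 51 called genes kept their direction under every alternative that tested them by the column names. RLE scaling and scaling without Ins1 and Ins2 left 51 calls and upper-quartile scaling 55, each including all 51. The count of calls was 237 in DESeq2 (95 higher, 142 lower), 216 in voom with quality weights (101, 115), 426 with all 24 libraries fitted (198, 228), 82 at 50 CPM (35, 47), 39 at 20 CPM in both groups (14 higher), 44 with filterByExpr, 40 on log2(FPKM + 1), 32 on log2(FPKM + 0.1) (15 lower), 38 with quality weights per group, 235 without HFD 1 and HFD 4 (110, 125) and 8 without LPD 1 and LPD 2 (5, 3). With all 24 libraries fitted, 48 of the 51 were called, and Cish (adjusted p = 0.0913), mt-Nd4 (0.198) and Xist (0.413) were not. At 20 CPM in both groups only 41 of the 51 were tested, and 39 of these were called. The 10 others, which reached 20 CPM in 1 group only, were not tested there. Leaving out 1 library gave 17 to 89 calls, 9 to 36 higher and 8 to 53 lower, and the extremes were without LPD 3 and without HFD 4. Calls for the difference between sexes ranged from 0 to 70, with 27 in DESeq2. HFD against ND ranged from 17 to 213, with 304 in DESeq2. LPD against ND ranged from 0 (without LPD 3 or ND 3) to 105, with 175 in DESeq2, 70 at 50 CPM and 295 without HFD 1 and HFD 4, which enter this fit through the shared spread. The causes were not tested. HFD depth and missing low-count genes limit the comparison to well-expressed genes.

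Replicate numbers did not pair the libraries. Correlations of same-numbered libraries were 0.03, 0.02, -0.00 and 0.03, and of the 8 libraries only HFD 4 correlated best with its own number. With the replicate block, 42 genes were called (17 higher, 25 lower), 39 of them among the 51, and Ins2 passed (0.87, adjusted p = 0.0455).

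With groups taken from the library numbers, the contrast becomes the columns named LPD daughters minus those named ND sons, whose Y-linked sums were 141 to 178 CPM against the female label. It called 1250 of 6966 genes (594 higher, 656 lower). The log2 fold change then had the other sign for Gm15459 (-0.66), Spock2 (0.042), Dbpht2 (-0.27), Spata13 (0.67), Mdm1 (-0.61), Pak3 (-0.14), Glp1r (0.51), Scg5 (-0.37), Nr1d2 (0.18), Cish (1.28), Prkca (0.11), Sort1 (0.32), Kif13b (0.21), Exph5 (0.18), Cldn4 (-0.12), Ivd (0.61), Sdf2l1 (-0.67), Agt (1.09), mt-Nd4 (0.14), Map3k15 (-0.10), Itpkb (0.40), Xist (9.29), Tmem130 (0.91), Creld2 (-0.83), Slc14a2 (1.27), Cars (-0.89), Plppr4 (-0.40), Fhdc1 (0.46), Sfrp5 (0.60), Mafa (0.36), Hspd1 (-0.43), Atf4 (-0.37), Slc2a2 (0.17), Hspe1 (-0.63), Ucn3 (0.24) and Myt1 (0.22).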

Other observations

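Among lists not described above, 22 of 26 genes of sterol and fatty acid synthesis had a log2 fold change above 0 (median 0.11) and 35 of 47 DNA methylation and chromatin regulators had one below 0 (median -0.05), with no edgeR call in either and 4 and 9 genes at an unadjusted p below 0.05. Of 55 translation factors 42 were above 0 (median 0.07), and of 36 proteasome subunits 26 were (median 0.11). In sons the median was 0.43 for cytosolic ribosomal proteins, 0.40 for nuclear oxidative phosphorylation genes and 0.38 for heat shock chaperones, beside 0.12, 0.15 and 0.24 in daughters. Within the LPD daughters, Ins2 and Ddit4l were lowest in LPD 1 and LPD 2 and highest in LPD 4, while Gcg was highest in LPD 1 and LPD 2 (844 and 880 CPM of the library total) and lowest in LPD 4 (398 CPM). Npy, a peptide of immature β cells, was at 51.7 to 154 CPM across the LPD libraries and 38.9 to 67.1 CPM across the HFD libraries, without passing (-1.12 ± 0.29, adjusted p = 0.122).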
